A study of Mus musculus with 6 samples.

Results

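Chromatin accessibility around 10 genes that set cell identity in the mammary epithelium was read from 3 ATAC-seq peak lists of NMuMG cells, a line of epithelial cells taken from mammary glands of normal mice. The genes were Foxa1, Esr1, Pgr, Prlr, Gata3, Elf5, Stat5a, Trp63, Sox9 and Sox10. The genes were chosen with earlier results of these data known, and regions were assigned to them by position alone. A region belonged to a locus when at least 1 bp of it lay within 100 kb of the 5′ end of the gene in the GENCODE vM1 annotation of NCBIM37 (mm9). This gave 44 regions of the 39435 regions in the union of the lists.

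ATAC-seq marks open DNA by letting the transposase Tn5 cut into it. After 6 h without serum and insulin, one group was given vehicle for 2 h (HCl with BSA in the treatment protocol, Tris-HCl with BSA in the sample labels), and the others were given TGFβ1 (5 ng/ml) for 2 h or for 12 h. There were 2 biological replicates of each condition, and the authors called 1 list from the pair. Hence no replicate spread could be computed and no test between conditions was run. All samples are the same cell line, and the 12 h cells differ from the vehicle cells also in the time without serum.

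The mammary epithelium has an inner luminal layer and an outer basal layer. Luminal cells divide into hormone-sensing cells, marked by the oestrogen receptor, and secretory precursors that form milk-producing alveoli under prolactin, while basal cells are contractile and keep the factor p63. TGFβ restrains growth and secretory differentiation in the gland, and in NMuMG cells it drives an epithelial-to-mesenchymal transition. A peak list shows where enough reads gathered for a call. A region that is absent from a list was not called there, and this is not a measured lack of signal. The lists hold no RNA level, and they give no read count behind a peak.

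The vehicle list held 18 regions at these loci, the 2 h list 36 and the 12 h list 36. In the whole lists these numbers were 16765, 32548 and 33079. No vehicle region overlapped 18 of the 36 regions after 2 h (50%, 95% Wilson interval 34.5 to 65.5), against 50.7% of the whole 2 h list. After 12 h it was 23 of 36 (63.9%, 47.6 to 77.5), against 53.9% of the whole list. Both intervals contain the value of the whole list. Closer to the genes the share was higher. Within 50 kb of the 5′ ends it was 13 of 17 after 2 h (76.5%, 52.7 to 90.4) and 15 of 18 after 12 h (83.3%, 60.8 to 94.2), against 43.7% and 45.5% of all regions within 50 kb of a protein-coding gene start. Where the nearest such start was that of a listed gene it was 10 of 12 (83.3%, 55.2 to 95.3) and 14 of 15 (93.3%, 70.2 to 98.8), against 47.0% and 49.3% of all regions within 100 kb of their nearest start. These 4 intervals do not contain the value for all genes. That value includes regions at start sites, which are mostly in all lists. All 4 intervals contain the share over all regions more than 1000 bp from any transcript start, 66.8% after 2 h and 71.0% after 12 h. The sets at the listed genes also hold regions at start sites, which that share leaves out, so the sets compared are unlike. The part of start sites in the difference was not tested. With each TGFβ list limited to its widest intervals, as many as the vehicle list has, the loci held 23 regions after 2 h and 22 after 12 h. Values over the whole lists are not given under this limit, for these counts or for those below. The intervals cover counting error only, and regions at the same gene are not independent of each other.

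In the union, 13 of the 44 regions were in all 3 lists (29.5%, against 38.4% of all union regions). Another 15 were in both TGFβ lists without vehicle (34.1%, against 28.5%), or 8 with the TGFβ lists limited as above. A further 8 were found at 12 h alone (18.2%, against 16.3%) and 3 at 2 h alone (6.82%, against 12.9%). The remaining 5 were in the vehicle and 2 h lists and missing after 12 h (11.4%, 95% Wilson interval 4.95 to 24.0, against 2.25%). No region at these loci was in the vehicle list alone, as 1.16% of the union was, and none was in the vehicle and 12 h lists without the 2 h list, as 0.388% was. The interval of each count of 0 reaches 8.03%. Of the 10 genes, 7 had a region that both TGFβ lists hold and vehicle lacks, against 62.7% of all protein-coding genes.

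**Figure D1:**
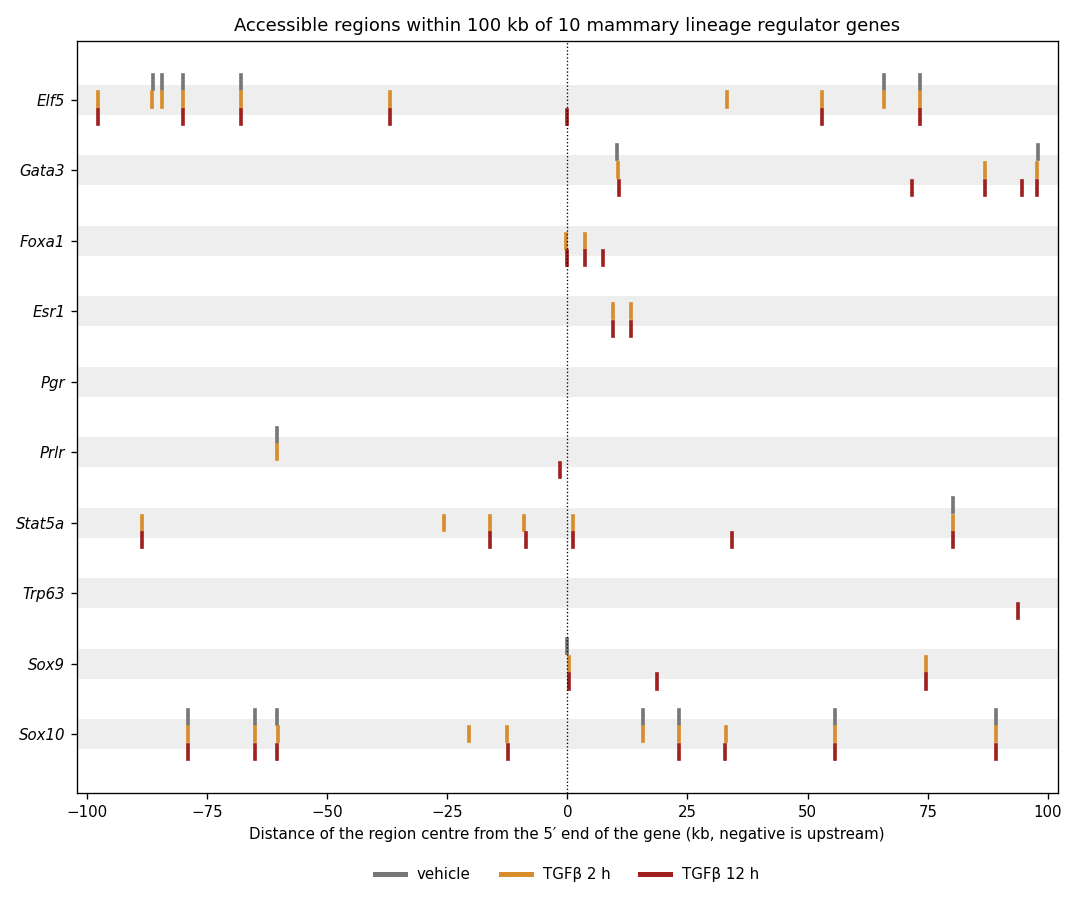
Position of every region at the 10 loci, with the distance of its centre from the 5′ end of the gene in kb on the horizontal axis and 1 lane per list for each gene (vehicle above, TGFβ 2 h in the middle, TGFβ 12 h below). Ticks mark centres and not widths. Elf5 and Sox10 have the most regions, 11 and 10, and Pgr has none.

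The number of regions differed widely between loci. Elf5 had 6 regions in vehicle, 10 after 2 h and 7 after 12 h, and Sox10 had 7, 10 and 8. Stat5a had 1, 6 and 6, and Gata3 had 2, 3 and 5. Sox9 had 1, 2 and 3 regions, and Prlr had 1 in each list. No vehicle region lay within 100 kb of Foxa1, Esr1, Trp63 or Pgr. Of all protein-coding genes, 87.8% had fewer vehicle regions than Sox10 and 81.8% fewer than Elf5. Over 22350 protein-coding genes the median was 2 regions in vehicle, 4 after 2 h and 4 after 12 h, and 22.9% of genes had no vehicle region in this window.

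**Figure D2:**
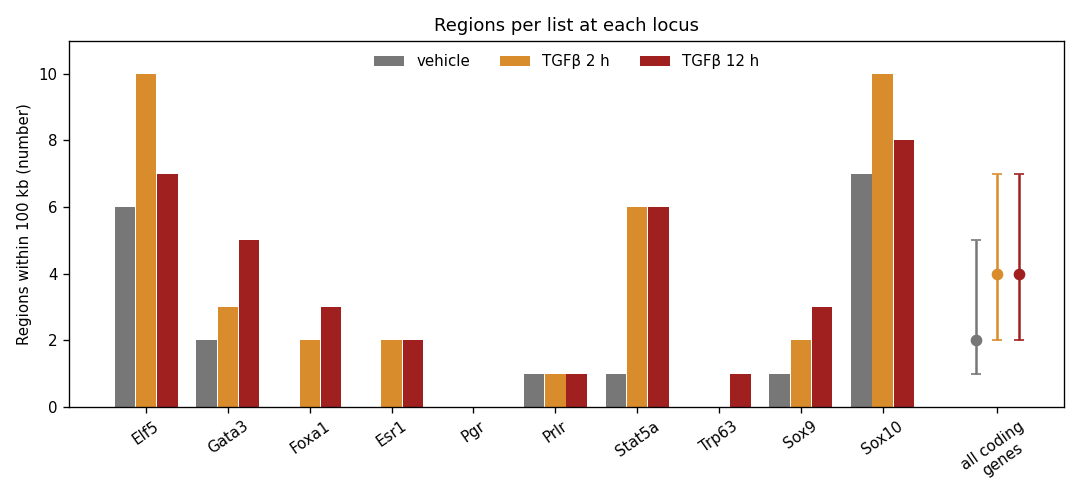
Number of regions in the window of 100 kb either side of each gene's 5′ end (bars, 1 per list), beside the median and the range from the 25th to the 75th percentile over 22350 protein-coding genes (points with error bars). Elf5 and Sox10 lie above the range of all genes in vehicle and after 2 h, and Stat5a has 1 region in vehicle and 6 in each TGFβ list.

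The 5′ end itself was covered at 1 of the 10 genes in vehicle (Sox9), at 2 genes after 2 h (Sox9 and Foxa1) and at 3 genes after 12 h (Sox9, Foxa1 and Elf5). Over all protein-coding genes these shares were 35.9%, 41.4% and 41.6%. The counts stayed at 2 and 3 genes when each TGFβ list was limited to its widest intervals, as many as the vehicle list has. The 5′ ends of Gata3, Esr1, Pgr, Prlr, Stat5a, Trp63 and Sox10 lay in no region of any list, as did those of 57.1% of protein-coding genes. Counting every annotated transcript start in place of the 5′ end added Stat5a after 2 h, and Stat5a and Gata3 after 12 h, so that 5 genes had a covered start after 12 h. Counting more starts can only add genes, and the share over all protein-coding genes is not given for this count.

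Foxa1 was the only one of the 10 genes whose 5′ end was covered in both TGFβ lists and not in vehicle. It encodes a pioneer factor, a protein that can bind closed chromatin and let the oestrogen receptor in. The gene lies on the minus strand of chromosome 12, with its 5′ end at 58647108. The vehicle list had no region there, and the nearest vehicle region to the region over the 5′ end was 314537 bp away. After 2 h a region of 1519 bp covered the 5′ end (58646534 to 58648052), and after 12 h a region of 1696 bp did (58646300 to 58647995). Each was merged from 2 intervals, and their union overlapped coding exon sequence of Foxa1.

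These regions were wider than 95.1% of the 2 h list and 96.7% of the 12 h list. The 5′ ends of 1054 protein-coding genes (4.72%) were covered in both TGFβ lists and not in vehicle, with median widths of 794 bp after 2 h and 835 bp after 12 h. Of these, 11.3% were at least as wide as Foxa1 after 2 h and 9.20% after 12 h. A small region in the coding sequence of Foxa1, 3568 bp from the 5′ end, was also in both TGFβ lists (202 bp and 199 bp). A further one, 7198 bp downstream and in no protein-coding gene, was found at 12 h alone and measured 444 bp. Over the window, regions covered 0 bp with vehicle, 1721 bp after 2 h and 2339 bp after 12 h.

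The DNA just upstream of the Foxa1 5′ end is shown because it lay inside the TGFβ regions and outside every vehicle region. The 300 bases before the 5′ end (chr12:58647109-58647408, NCBIM37, minus strand) had 22 CG dinucleotides and 60% GC. The capitals mark a match to the FOX motif TGTTTAC, here on the opposite strand. Farther upstream (chr12:58647664-58647813, minus strand), the capitals mark a pair of matches to the AP-1 motif TGACTCA. Jun and Fos proteins bind this motif as the factor AP-1.
Foxa1 upstream: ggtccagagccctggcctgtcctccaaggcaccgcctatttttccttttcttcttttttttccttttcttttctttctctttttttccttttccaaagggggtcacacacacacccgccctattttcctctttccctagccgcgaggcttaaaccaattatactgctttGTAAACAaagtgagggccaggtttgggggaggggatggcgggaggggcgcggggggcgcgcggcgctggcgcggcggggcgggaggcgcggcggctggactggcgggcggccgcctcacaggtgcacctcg
Foxa1 AP-1 pair: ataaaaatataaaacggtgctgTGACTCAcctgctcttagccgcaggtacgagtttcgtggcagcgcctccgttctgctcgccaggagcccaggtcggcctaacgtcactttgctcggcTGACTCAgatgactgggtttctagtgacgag

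Esr1, which encodes the oestrogen receptor alpha, had no vehicle region within 100 kb. Both TGFβ lists had the same pair of regions, in introns of the gene, on chromosome 10 (minus strand, 5′ end at 5734948). The nearer one lay 9113 bp downstream of the 5′ end and measured 596 bp after 2 h and 721 bp after 12 h. The other lay 12797 bp downstream and measured 740 bp and 535 bp. The nearest vehicle region was 188010 bp from the first and 191694 bp from the second.

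Each Esr1 region held 1 AP-1 match, printed below in capitals with its surroundings, since no other region lay in the window. The sequences are from chr10:5725482-5725541 and chr10:5722020-5722079, minus strand. The match in the nearer region lay inside the calls of both TGFβ lists, and that in the farther one inside the 2 h call but outside the 12 h call, which ended at 5721917. Like Foxa1, Esr1 had no vehicle region and at least 1 region of both TGFβ lists in its window, which held for 5.66% of protein-coding genes.
Esr1 nearer region: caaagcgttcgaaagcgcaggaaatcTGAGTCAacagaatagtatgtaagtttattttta
Esr1 farther region: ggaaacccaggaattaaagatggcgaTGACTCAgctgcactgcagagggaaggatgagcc

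Pgr, the progesterone receptor and a target of the oestrogen receptor, had no region within 100 kb in any list, as did 14.3% of protein-coding genes. The nearest region to its 5′ end (chromosome 9, 8900419, plus strand) was 338276 bp away in vehicle, 148099 bp after 2 h and 147888 bp after 12 h.

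Prlr encodes the prolactin receptor, which signals through STAT5 in alveolar cells (chromosome 15, plus strand, 5′ end at 10106993). A different region was found early and late. A region 59787 bp upstream, in no protein-coding gene, measured 1201 bp in vehicle (merged from 2 intervals) and 1148 bp after 2 h. It was missing after 12 h. Its vehicle score was 926, on a scale that the authors do not state. Scores in this list ran from 540 to 1000, with a median of 1000. After 12 h the only region was a different one, of 698 bp, which lay 1075 bp upstream of the 5′ end (10105221 to 10105918) and was in neither of the other lists.

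The region missing from the 12 h list was wide. Of the 1386 vehicle regions at least as wide, 24 had no 12 h region (1.73%). Within it 2 matches to the GATA motif AGATAA lay close together, and they are in capitals in the stretch shown (chr15:10046705-10046804, plus strand). The region also held 2 AP-1 matches outside this stretch.
Prlr distal region: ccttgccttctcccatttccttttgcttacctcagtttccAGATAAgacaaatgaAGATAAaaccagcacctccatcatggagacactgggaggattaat

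**Figure D3:**
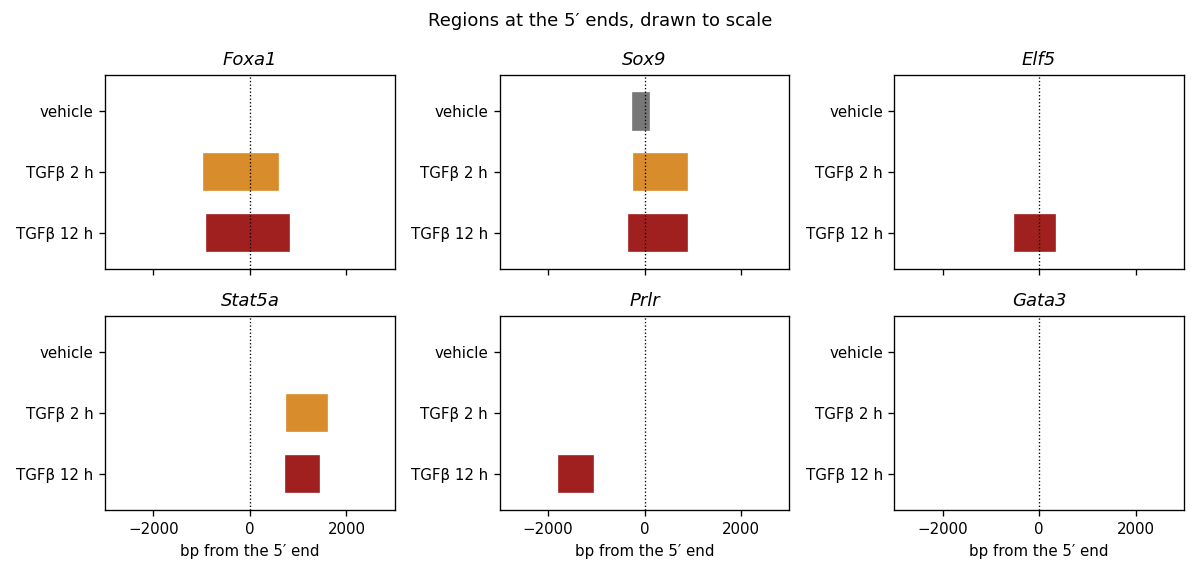
Regions up to 3 kb either side of the 5′ ends of Foxa1, Sox9, Elf5, Stat5a, Prlr and Gata3, drawn to scale with the distance from the 5′ end in bp on the horizontal axis (negative is upstream) and 1 lane per list. At Foxa1 the lane of vehicle is empty while both TGFβ lanes span the 5′ end, at Sox9 the region spans 330 bp in the lane of vehicle and 1095 bp and 1195 bp in the TGFβ lanes, and at Gata3 all lanes are empty.

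Gata3, a zinc finger factor needed for luminal differentiation, lies on the minus strand of chromosome 2 with its 5′ end at 9811661. That end lay in no region, and the nearest region was 10144 bp downstream, inside the gene and over exon sequence without coding bases. This region measured 556 bp in vehicle, 734 bp after 2 h and 1328 bp after 12 h, when it was merged from 2 intervals. Only after 12 h did it reach an annotated Gata3 transcript start, at 9800227.

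The other 4 Gata3 regions lay between 71423 bp and 97281 bp downstream, past the end of the gene and in no protein-coding gene. The farthest was in all lists, with 497 bp in vehicle, 908 bp after 2 h and 830 bp after 12 h. Another was in both TGFβ lists, with 1012 bp after 2 h, merged from 2 intervals, and 643 bp after 12 h. A pair of 352 bp and 520 bp was found at 12 h alone. For none of the 5 regions was the 5′ end of Gata3 the nearest gene start. For all of them it was that of 4930412O13Rik, 1362 bp from the region inside Gata3.

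All 5 Gata3 regions held at least 1 AP-1 match somewhere in their length, 8 matches in total. Over the union, 41.8% of regions held a match in their whole length. The region of both TGFβ lists, 86377 bp downstream of the 5′ end, held 3. They are shown in capitals (chr2:9724636-9724785, minus strand).
Gata3 downstream region: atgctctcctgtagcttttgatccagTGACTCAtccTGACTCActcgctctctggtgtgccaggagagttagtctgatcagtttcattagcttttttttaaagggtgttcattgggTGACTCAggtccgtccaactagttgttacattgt

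Elf5 encodes an ETS family factor that drives alveolar differentiation (chromosome 2, plus strand, 5′ end at 103251845). Its 5′ end lay in a region at 12 h alone, 820 bp wide (103251349 to 103252168), while the nearest 2 h region to it was 32815 bp away and the nearest vehicle region 65477 bp away. This pattern at a 5′ end was rare, with 269 protein-coding genes (1.20%). The 300 bases before the 5′ end (chr2:103251545-103251844, plus strand) had 3 CG dinucleotides and 1 AP-1 match, in capitals.
Elf5 upstream: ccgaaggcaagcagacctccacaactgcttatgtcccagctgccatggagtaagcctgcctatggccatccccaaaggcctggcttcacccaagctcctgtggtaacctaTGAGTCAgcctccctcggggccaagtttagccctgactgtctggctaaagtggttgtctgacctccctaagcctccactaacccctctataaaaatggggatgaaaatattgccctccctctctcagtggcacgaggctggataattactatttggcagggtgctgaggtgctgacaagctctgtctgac

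Other Elf5 regions were missing from the 12 h list. Of the 6 vehicle regions in the window all were kept after 2 h and 3 were missing after 12 h. They measured 840 bp, 446 bp and 275 bp in vehicle, with scores of 1000, 598 and 614, and 951 bp, 386 bp and 335 bp after 2 h. Of all vehicle regions, 74.9%, 34.6% and 12.9% were narrower, in the same order, and the lowest score was 540. The wider pair lay 85803 bp and 84145 bp upstream, close together and in no protein-coding gene, and the gene start nearest to both was that of Ehf, another epithelial ETS factor. The third lay in an intron of Cat, the gene of catalase, 65773 bp downstream.

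Of the 4210 vehicle regions at least 840 bp wide, 74 had no 12 h region (1.76%). At least 3 regions of the vehicle and 2 h lists missing after 12 h were found near 39 of 22350 protein-coding genes (0.174%). The number 3 was chosen after the values at Elf5 were seen. It also rests on the merging distance. With gaps under 2000 bp merged, the wider pair would be a single region, and the loci held 17 vehicle regions. The widest of the 3 is shown around its GATA match, here on the opposite strand, and its AP-1 match (chr2:103165656-103165805, plus strand, both in capitals).
Elf5 distal region: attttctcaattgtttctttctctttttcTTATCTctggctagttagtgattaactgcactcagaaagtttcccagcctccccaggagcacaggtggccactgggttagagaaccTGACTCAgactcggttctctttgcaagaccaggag

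Of the remaining Elf5 regions, 3 were in all lists. Nearest to Ehf, 1 measured 620 bp in vehicle, 626 bp after 2 h and 731 bp after 12 h. Another measured 464 bp, 324 bp and 411 bp in the same order, and the one over the start of Cat 863 bp, 768 bp and 807 bp. The last was narrower in both TGFβ lists than in vehicle, as was the one of 464 bp. A region 36633 bp upstream was in both TGFβ lists, with 383 bp and 565 bp. Those in both TGFβ lists 97374 bp upstream and 52834 bp downstream measured 449 bp and 328 bp after 2 h and 382 bp and 347 bp after 12 h. A region of 381 bp, 33139 bp downstream within the gene, was found at 2 h alone.

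Stat5a encodes the factor that prolactin receptor signalling activates and that switches on milk protein genes (chromosome 11, plus strand, 5′ end at 100720665). In vehicle its window held 1 region, of 897 bp, and this lay at the start of its neighbour Stat3, 79682 bp downstream, with 1026 bp after 2 h and 1057 bp after 12 h. Both TGFβ lists had 6 regions, of which 4 were in both lists without vehicle. The covered length was 897 bp with vehicle, 4128 bp after 2 h and 4671 bp after 12 h.

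The new Stat5a region nearest to the 5′ end lay 757 bp downstream (100721422 to 100722263), over exon sequence without coding bases and over annotated transcript starts. It measured 822 bp after 2 h and 674 bp after 12 h. Upstream, a region at the start of Stat5b, the paralogue with a like role, measured 814 bp after 2 h and 1434 bp after 12 h. A region in an intron of Stat5b measured 767 bp and 691 bp. The region at the start of Ghdc measured 442 bp and 435 bp. Of the other 2 regions, 1 of 257 bp in Stat5b was found at 2 h alone and 1 of 380 bp in Stat3 at 12 h alone.

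Trp63 encodes p63, the factor that defines basal epithelial cells. The gene lies on the plus strand of chromosome 16, with its 5′ end, the start of the long isoforms, at 25683849. Its window held 1 region in all, found at 12 h alone, 363 bp wide and in an intron 93682 bp downstream. The start inside the gene at 25802002, 118153 bp from the 5′ end, lay in no region, and the nearest regions to it were 58883 bp away in vehicle, 33235 bp after 2 h and 24109 bp after 12 h.

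The Trp63 region held 3 AP-1 matches and 1 match to the STAT motif TTCNNNGAA, which are in capitals (chr16:25777668-25777867, plus strand).
Trp63 intron region: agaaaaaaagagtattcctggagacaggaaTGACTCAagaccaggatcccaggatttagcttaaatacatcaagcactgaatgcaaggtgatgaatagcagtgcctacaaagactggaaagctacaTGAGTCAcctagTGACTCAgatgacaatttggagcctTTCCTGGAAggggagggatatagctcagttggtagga

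Sox9, a factor of luminal progenitors, was the only one of the 10 genes whose 5′ end was covered in all lists (chromosome 11, plus strand, 112643538). The region measured 330 bp in vehicle (112643294 to 112643623), 1095 bp after 2 h (112643323 to 112644417) and 1195 bp after 12 h (112643223 to 112644417), with a vehicle score of 1000. The upstream edges of the 3 calls lay within 100 bp of each other, so most of the added width lay downstream, inside the gene. The width after 2 h was 3.32 times that of vehicle and after 12 h 3.62 times.

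Among the 7933 protein-coding genes with the 5′ end covered in all lists (35.5% of genes), the median ratios were 1.18 and 1.23. Ratios at least as high as those of Sox9 were found at 2.46% of them after 2 h and 2.28% after 12 h. The next regions of Sox9 lay 18279 bp downstream (692 bp, 12 h alone) and 74423 bp downstream (436 bp after 2 h and 455 bp after 12 h, not in vehicle), both in no protein-coding gene. The 300 bases before the Sox9 5′ end are shown for comparison with Foxa1 (chr11:112643238-112643537, plus strand). They had 15 CG dinucleotides, and the capitals mark a match to the TEAD motif GGAATGT, here on the opposite strand, and an AP-1 match. The AP-1 match lay inside the call of every list, and the TEAD match inside that of 12 h alone.
Sox9 upstream: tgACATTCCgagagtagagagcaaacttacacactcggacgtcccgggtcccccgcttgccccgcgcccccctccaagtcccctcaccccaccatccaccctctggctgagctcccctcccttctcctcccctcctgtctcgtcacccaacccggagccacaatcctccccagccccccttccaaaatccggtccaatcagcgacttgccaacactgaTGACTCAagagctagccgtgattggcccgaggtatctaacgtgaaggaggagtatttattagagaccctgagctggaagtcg

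Sox10, a neural crest factor that is also found in mammary progenitors, had no region at its 5′ end and many in its window (chromosome 15, minus strand, 78994920). Of its 10 regions 6 were in all lists. Those 6 lay at or near the genes Eif3l, Micall1, Polr2f with 1700088E04Rik, and Pick1. The widest lay at the start of Micall1 and measured 1555 bp in vehicle, 1614 bp after 2 h and 1666 bp after 12 h. Its vehicle and 2 h calls were each merged from 2 intervals. At the start of Pick1 the widths were 218 bp, 669 bp and 977 bp, or 3.07 and 4.48 times the vehicle width. Over exons of Polr2f and 1700088E04Rik they were 729 bp, 954 bp and 1178 bp. The region at Eif3l was widest in vehicle, with 770 bp, 597 bp and 619 bp. The remaining pair near Pick1 measured 369 bp, 570 bp and 413 bp, and 220 bp, 271 bp and 443 bp.

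The other 4 Sox10 regions were not in all lists. A region 12006 bp upstream, in no protein-coding gene, was in both TGFβ lists without vehicle, with 638 bp after 2 h and 734 bp after 12 h. So was one over Micall1 coding sequence, 32489 bp downstream, with 554 bp and 700 bp. The next one, 19454 bp upstream, was found at 2 h alone and measured 1900 bp, merged from 2 intervals. Of the 604 regions of the 2 h list at least this wide, 5 had neither a vehicle nor a 12 h region (0.828%). In an intron of Polr2f, 15495 bp downstream, a region of 201 bp in vehicle and 515 bp after 2 h was missing after 12 h. Only 4.21% of the vehicle list was narrower than its vehicle call.

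The region 12006 bp upstream of Sox10 is shown as the nearest to the 5′ end. It held 2 AP-1 matches and 1 STAT match, in capitals (chr15:79007468-79007587, minus strand).
Sox10 upstream region: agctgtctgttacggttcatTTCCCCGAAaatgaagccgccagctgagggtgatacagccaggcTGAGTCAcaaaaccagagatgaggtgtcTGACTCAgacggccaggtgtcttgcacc

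The width of the same region was compared between lists. All 18 vehicle regions were matched to a single 2 h region, and 13 of them were wider after 2 h (72.2%, 95% Wilson interval 49.1 to 87.5, against 82.7% of all matched regions). The median difference was 85.5 bp, against 147 bp over all matched regions. After 12 h, 10 of 13 were wider (76.9%, 49.7 to 91.8, against 83.6%), with a median difference of 160 bp against 175 bp. The differences ran from -173 bp at Eif3l to 765 bp at Sox9 after 2 h, and from -151 bp to 865 bp for the same pair after 12 h.

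**Figure D4:**
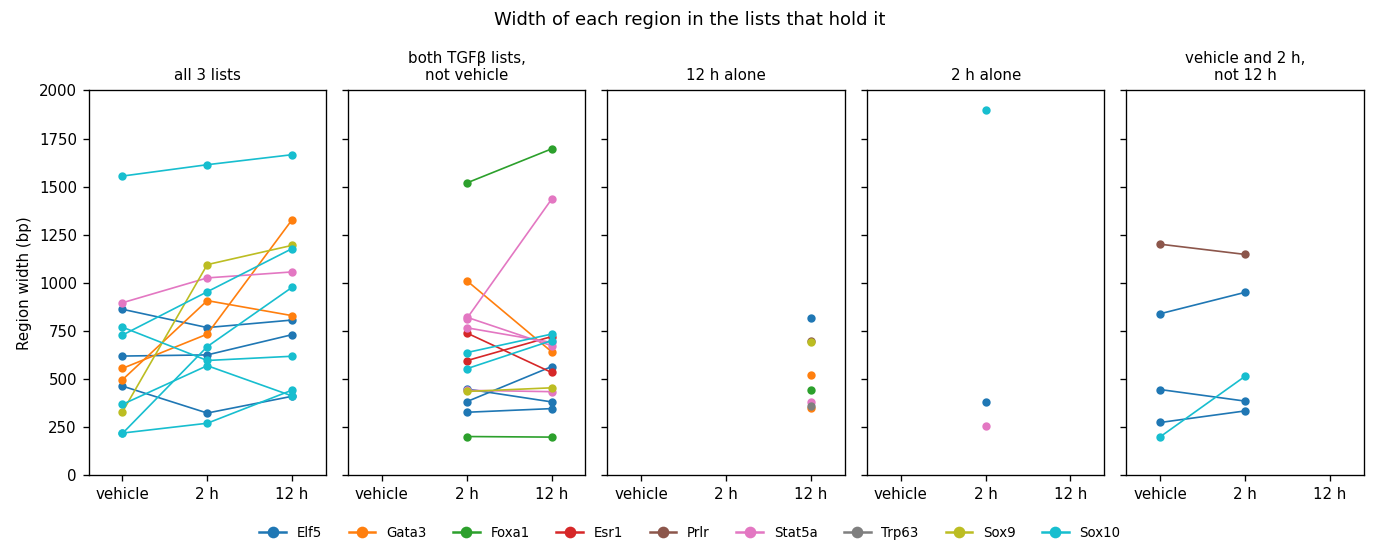
Width in bp of each of the 44 regions in the lists that hold it, in 5 panels by the lists in which the region was found, coloured by gene. Lines join the same region, and a missing point means that the list has no region there. Among regions that both TGFβ lists hold and vehicle lacks, the widest is that over the Foxa1 5′ end, with 1519 bp and 1696 bp.

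The vehicle list was then followed forward. None of the 18 vehicle regions was missing after 2 h (95% Wilson interval 0 to 17.6, against 3.95% of all vehicle regions), and 5 were missing after 12 h (27.8%, 12.5 to 50.9, against 8.60%). Of these 5, 3 lay in the window of Elf5 and 1 each in those of Prlr and Sox10. The count at Elf5 rests on the merging distance, as described above. For these regions the nearest 12 h region was between 3836 bp and 58014 bp away. The 12 h samples had the fewest reads after mapping and filtering, and the part of read depth in these losses was not tested.

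The regions were then split by the nearest gene. For 18 of the 44 regions the nearest start of a protein-coding gene was that of a listed gene. Of these 18, Sox9 gave the 1 region in all lists. A further 8 were in both TGFβ lists but not vehicle, 6 in the 12 h list only, 2 in the 2 h list only, and 1, at Prlr, was missing only from the 12 h list. Of the other 26, 12 were in all lists and 7 in the TGFβ lists but not vehicle. Over all pairs of a protein-coding gene and a region within 100 kb, 42.4% of the regions nearest to that gene were in all lists, and 51.3% of those nearest to another. For the other patterns the shares over all such pairs are not given, so their counts here have no value to be read against.

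The regions were also split by distance from start sites. Within 1000 bp of any annotated transcript start lay 15 of the 44 regions, of which 9 were in all lists, against 76.7% of all union regions so close to a start. Of the 29 farther away, 4 were in all lists, against 22.8%, and 11 were in the TGFβ lists but not vehicle. The share of this last pattern over all regions so far from a start is not given. Away from start sites 14 of 23 regions after 2 h had no vehicle region (60.9%, 95% Wilson interval 40.8 to 77.8, against 66.8% of all such 2 h regions), and 17 of 21 after 12 h (81.0%, 60 to 92.3, against 71.0%).

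By annotation, 18 of the 44 regions lay in no protein-coding gene and 9 in introns only. A further 10 overlapped coding exon sequence and 7 exon sequence without coding bases. The same split over all union regions is not given, so these counts describe the loci only and show no difference from other regions.

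The 5′ ends that were covered in vehicle or after 2 h were rich in CG dinucleotides. In the 1000 bp around the 5′ end, the ratio of observed to expected CG was 0.880 at Foxa1 and 0.796 at Sox9, the highest of the 10 genes. It ran from 0.193 to 0.551 at the others, with Elf5, covered at 12 h alone, the lowest. The median was 0.775 over genes covered in all lists, 0.695 over genes covered in both TGFβ lists and not in vehicle, 0.673 over genes covered at 12 h alone, and 0.268 over genes covered in no list.

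Sequence motifs were counted as exact matches on both strands in the central 500 bp of each region. The AP-1 motif TGACTCA was found in 19 of the 44 regions (43.2%, 95% Wilson interval 29.7 to 57.8), against 35.6% of all union regions. Among the 15 regions of both TGFβ lists without vehicle 7 held it (47.3% over the union), and among the 8 of the 12 h list alone 5 did (47.6%). Of the 13 regions in all lists 4 held it (24.4%). The counts were 2 of 3 for the 2 h list alone (32.3%) and 1 of 5 for regions missing from the 12 h list (25%). In their whole length 26 of the 44 held a match (59.1%, 44.4 to 72.3, against 41.8% of the union, a value below the interval). Their median width in the union was 723.5 bp, against 614 bp over all regions, and the part of width in this share was not tested. Each of the 9 genes with regions had at least 1 match, as did 81.0% of protein-coding genes with a region in the window.

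For the motifs of the lineage factors themselves, the share over the union lay inside the interval of the 44 regions. The motif of GATA factors, AGATAA, was in 20.5% of the 44 regions and 21.2% of the union, and STAT (TTCNNNGAA) in 13.6% and 14.1%. FOX (TGTTTAC) was in 4.55% and 8.69%, SOX (ACAATGG) in 2.27% and 6.10%, and ETS (CCGGAAGT) in 6.82% and 2.96%. TEAD (GGAATGT) was in 9.09% and 9.40%. Neither the oestrogen response element nor the p53 family motif was in any of the 44, against 0.101% and 1.30% of the union. A count of 0 has an interval up to 8.03%, so for these rare motifs a shortage could not be seen. The intervals were also wide for FOX (1.26 to 15.1) and SOX (0.402 to 11.8). A match gives the letters only and does not show that a factor was bound.

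The SMAD motif GTCTAGAC was in 1 region, that at the start of Pick1 in the window of Sox10 (79059642 to 79059649), and in 0.819% of the union. The match lay inside both TGFβ calls and outside the vehicle call, which began at 79059700. Only these exact letters were searched for SMAD, while the paper used further SMAD motifs and footprints. The low count therefore does not show that SMAD sites were few. In the region over the Polr2f and 1700088E04Rik exons a STAT and an ETS match overlapped.

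**Figure D5:**
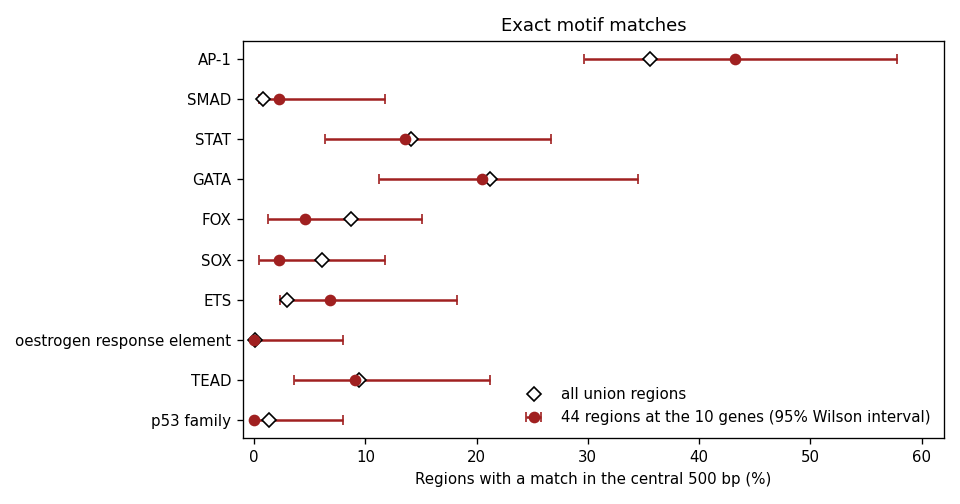
Share of regions with an exact match in the central 500 bp, in percent, for 10 motifs. Filled points with error bars are the 44 regions at the lineage genes with 95% Wilson intervals, and open diamonds are all 39435 union regions. AP-1 is the most frequent motif in both sets, with 43.2% and 35.6%.

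Further genes of these lineages were counted in the same way. Around 20 further regulators (such as Cebpb, Runx1, Elf3, Ehf and Notch1) the lists had 51, 94 and 93 regions. Of these 2 h regions 50% were without a vehicle region, of the 12 h regions 57.0% were, and the 5′ end was covered at 6, 7 and 9 of the 20 genes. Stat5b, Stat3 and Ehf among them share regions with the windows of Stat5a and Elf5. Around 15 luminal marker and hormone target genes these shares were 48.1% and 45.5%, and around 8 basal marker genes 43.8% and 56.4%. No region of any list lay in the window at 2 of the 15 luminal genes (the milk protein genes Csn2 and Csn3) and at 2 of the 8 basal genes (Krt5 and Oxtr), against 14.3% of protein-coding genes. The milk protein genes Wap and Lalba had regions in every list, as did the basal genes Krt14, Krt17, Acta2, Myh11, Lgr5 and Procr. Such regions are common, since only 22.9% of protein-coding genes had no vehicle region in the window. Of these genes, only Lgr5 had its 5′ end in a region, and it did so in every list.

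Marker genes of the labelled cell type and of other cell types were also read at their 5′ ends. Of 5 epithelial genes, Krt8 and Krt18 were covered in all lists, Cdh1 in both TGFβ lists and not vehicle, Cldn4 at 12 h alone and Epcam in none. Over all protein-coding genes, 35.5% were covered in all lists and 57.1% in none. Of 10 genes of fibroblasts, immune cells, endothelium and fat (such as Pdgfra, Ptprc, Pecam1 and Adipoq), none was covered in any list. With so few genes, these counts do not establish the cell type. Open chromatin at a start does not give the level of the RNA.

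Close to the border of the window, the region 97281 bp from Gata3 measured 497 bp, 908 bp and 830 bp and was counted. A region 101184 bp from Sox10 with 912 bp, 840 bp and 879 bp was not.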

How the data were processed

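ATAC-seq was measured in 6 samples of NMuMG cells, 2 biological replicates in each of 3 conditions, grouped by the sample titles. The authors ran the ENCODE ATAC-seq pipeline on mm9, called peaks with MACS2 2.1.2, filtered them for reproducibility within each replicate pair (IDR) and deposited 1 list of peak positions per condition. The score deposited in the vehicle list has no stated scale. In the TGFβ lists that column numbers the lines, so it was not used there. The study gives read totals per sample, which entered no count here. After mapping and filtering, these totals were lowest in the 12 h samples. The deposited lists hold no read counts per peak.

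Distinct intervals of at least 150 bp were kept. Those less than 1000 bp apart were merged in each list, then across lists. Shares have 95% Wilson intervals. Motifs were searched in the NCBIM37 sequence. With 1 list per condition, no test was run. The genes, the further gene lists and the alternatives were chosen with earlier results of these data known. By rule every region in a window was described, and those over the 5′ end, nearest in both TGFβ lists without vehicle and widest after 12 h were named. For 3 genes an older symbol was used (Tcfap2c, Tcfap2a and Emr1). The interval code was tested on simulated data, where 0 of 10151 comparisons disagreed with a direct count. Python 3.11.15, numpy 2.4.6 and matplotlib 3.10.9 were used.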

Additional observations from a re-analysis of the deposited data

How the results depend on the processing

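No paired analysis was possible because both replicates of a condition entered its only list, and for that reason no replicate could be left out in turn. Over all results and alternatives, 66 values stayed within 1.5 times a count or within the interval of a share, and 14 moved outside. When the TGFβ lists were limited to their widest intervals, as many as the vehicle list has, the loci held 23 regions after 2 h and 22 after 12 h, and 8 in both TGFβ lists without vehicle, with fewer intervals by construction. Regions with no vehicle region made up 76.5% after 2 h and 83.3% after 12 h in windows of 50 kb, and 83.3% and 93.3% where the nearest gene start is that of a listed gene. They made up 81.0% after 12 h away from start sites, a setting chosen after seeing the data. The share of matched regions wider than in vehicle was 100% in windows of 50 kb at both times (4 and 3 regions) and 100% after 12 h for the nearest gene (1 region). Counting any transcript start, which can only add genes, gave 5 genes after 12 h, with no share over all genes beside it. The AP-1 share was 29.5% in 200 bp and 59.1% in whole regions, where shorter or longer sequences were searched. The cause of the other moves was not tested.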
